A study of Mus musculus with 8 samples.

Results

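The genes described here encode splicing factors and hnRNP proteins, measured in kidneys of p53 null and wild-type mouse embryos. They were chosen by name: every gene whose symbol starts with Srsf, Hnrnp, Sf3a, Sf3b or Snrp and a further set named singly (Qk, U2af1, U2af2, Ptbp1, Ptbp2, Rbfox2, Mbnl1, Mbnl2, Celf1, Celf2, Tra2a, Tra2b, Esrp1 and Esrp2). The array carried 100 probes for 62 such genes, and 61 of them were among the 12000 genes tested. By role they fall into 12 SR proteins (with Tra2a and Tra2b), 20 hnRNP and PTB proteins, 11 subunits of SF3a, SF3b and U2AF (labelled U2 snRNP and U2AF in the plots), 11 Snrp genes for snRNP proteins and 8 tissue-regulated factors. The gene left out of the tests was Esrp1, which was not well above background on enough arrays.

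Each of 8 arrays with 2 colours compared kidney RNA of p53 null embryos directly with that of wild-type embryos, both of strain C57BL/6 and at embryonic day 15.5. The arrays form 3 biological replicates with the dyes swapped within each. Replicate 1 has 4 arrays on slide 1, and replicates 2 and 3 have 2 arrays each on slide 2. How the null allele was made, which part of Trp53 it lacks and how many embryos gave each RNA are not given in the sources used here. No treatment is named, and all groups share strain, age and organ. Values below are given on the log2 scale, as the null signal divided by the wild-type signal. A mean ± SD is over the 3 replicates, a positive value means more signal in the null kidney, and the limited number of arrays limits the precision.

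Splicing removes introns from nuclear pre-mRNA. The spliceosome is built from small nuclear RNAs with their proteins (snRNPs), and the U2 snRNP with U2AF recognises the 3' end of the intron. SR proteins bind exons and mostly favour their inclusion, while many hnRNP proteins, including the pyrimidine tract binding proteins (PTB), repress exons or coat the transcript. Tissue-regulated factors such as the epithelial proteins Esrp1 and Esrp2 shift isoforms between cell types, and in the embryonic kidney both epithelium and mesenchyme are present. Many SR and hnRNP genes also regulate their own transcripts through poison exons, which carry an early stop codon.

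Trp53, the targeted gene, had −1.08, −0.47 and −0.45 in replicates 1, 2 and 3 on its brightest probe, and a second probe had 0.16 ± 0.13. Whether either probe lies in the deleted part is not known here. No gene passed an adjusted p of 0.05 over 20865 probes with 3 replicates (limma, smallest adjusted p = 0.279). Across the 61 splicing genes the correlation was 0.92 between replicates 2 and 3, which share a slide, against 0.31 and 0.02 between replicate 1 and each of these. Slide and replicate cannot be told apart, so replicate 1 and the slide 2 replicates are given separately for many of the genes. Where only a mean ± SD is printed, it does not show whether the slides differed. Of 13 markers of kidney progenitors and ureteric bud, 11 were detected, and Ret and Hoxd11 were not tested. In bulk tissue, fewer cells of a type and less RNA per cell cannot be told apart.

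Most splicing genes had somewhat more signal in the null kidneys, and the SR protein genes had the highest values. The median over the 61 genes was 0.13, against 0.00 over all 12000 genes, and 40 had a mean above 0 and 21 below. By replicate the median was 0.07, 0.20 and 0.12, against −0.02, 0.02 and 0.03 over all genes. In all 3 replicates 26 of the 61 were higher, where 20.4% of all genes were, and 7 were lower, where 19.7% of all genes were. None passed the adjusted threshold, as for 0.00% of all genes. At an unadjusted p under 0.05 (limma) 17 were higher and 3 lower, against 9.24% and 8.93% of all genes. When arrays were centred on the median in place of loess, the median of all genes moved up to 0.15. The splicing genes then lay 0.18 above it rather than 0.13. Of them 53 were above 0 and 44 above the median of all genes, against 39 above that median with loess. At the unadjusted threshold 15 were higher and 0 lower, and the shares of all genes under median centring were not counted.

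A further fit took each of the 8 arrays as a value, held a term for dye and treated replicate as a random block. Its error counts repeated arrays of the same RNA, so it leans on technical repeats. There 9 splicing genes were higher at an adjusted p under 0.05, where 3.10% of all genes were, and 1 was lower, where 3.08% of all genes were. The 9 were Srsf1, Srsf2, Srsf3, Srsf5, Srsf6, Srsf7, Tra2b, Hnrnpdl and Qk, with adjusted p from 0.0272 to 0.0498, and the lower one was Mbnl2 (adjusted p = 0.0437). Without replicate 1, 28 were higher and 13 lower, where 32.9% and 27.1% of all genes passed. In that fit the 2 remaining replicates share slide 2.

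**Figure D1:**
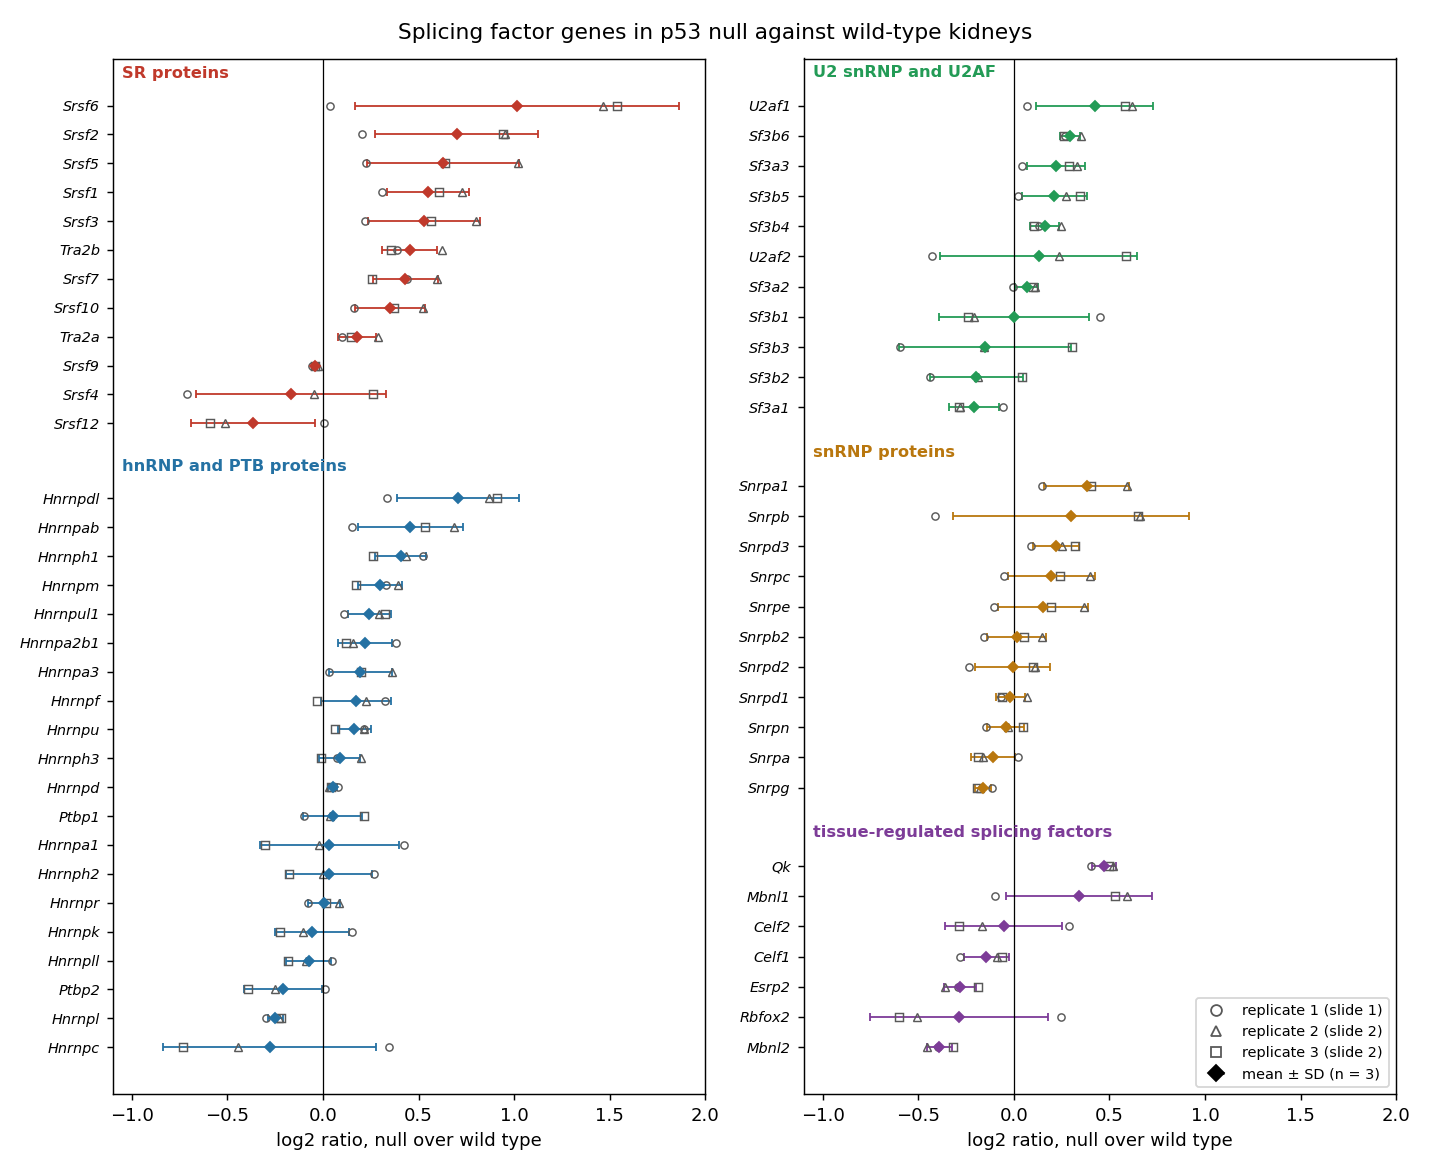
Log2 ratio of null over wild type for the 61 tested splicing genes, grouped by role: diamonds with bars give the mean ± SD (n = 3), open symbols the value of each replicate. Srsf6 lies highest at 1.01 and Mbnl2 lowest at −0.39, and replicate 1 often lies on the other side of 0 from replicates 2 and 3.

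The SR proteins carry an arginine-serine repeat and recruit the splicing machinery to exons. Of the 12, 9 were higher in all 3 replicates and Srsf9 was lower in all 3, where 20.4% and 19.7% of all genes were. Their median was 0.44, and by replicate 0.18, 0.61 and 0.36. At an unadjusted p under 0.05 (limma) 8 were higher and 0 lower, where 9.24% and 8.93% of all genes were. The median stayed between 0.37 and 0.51 above that of all genes under every alternative run, leaving out each replicate included.

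Srsf6 (SRp55) had 0.04, 1.47 and 1.54 in replicates 1, 2 and 3. Its 4 arrays in replicate 1 had 0.29 and 0.26 with the null RNA in Cy5 and −0.21 and −0.18 with it in Cy3, while the 4 slide 2 arrays lay between 1.34 and 1.59. The value of 1.01 ± 0.85 (adjusted p = 0.285, limma) therefore rests on slide 2, and in replicate 1 its sign followed the dye. 

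Srsf2 (SC35) had 0.20, 0.95 and 0.94, or 0.70 ± 0.43 (adjusted p = 0.279, limma). Srsf5 (SRp40) had 0.22, 1.02 and 0.64, or 0.63 ± 0.40 (adjusted p = 0.279). Both were higher on all 8 arrays, and the slide 2 replicates lay above replicate 1 for each. Srsf1, the SR protein first isolated as SF2/ASF, had 0.31, 0.73 and 0.61, or 0.55 ± 0.21. Srsf3, the smallest of the family and also an adaptor for mRNA export, had 0.22, 0.80 and 0.56, or 0.53 ± 0.29. Neither changed sign on any array, and the lowest single-array value of Srsf1 was 0.15.

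Tra2b, which activates exons through purine-rich enhancers, had 0.38, 0.62 and 0.36, or 0.45 ± 0.14. Srsf7 (9G8) had 0.44, 0.59 and 0.26, or 0.43 ± 0.17, and so was as high in replicate 1 as on slide 2. Srsf10, which becomes a repressor when dephosphorylated, had 0.16, 0.52 and 0.37, or 0.35 ± 0.18. Tra2a had 0.10, 0.29 and 0.15, or 0.18 ± 0.10. All of these were higher on all 8 arrays, as were 8 of the 12 SR genes, where 7.58% of all genes were.

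The other 3 SR genes differed from these. Srsf9 (SRp30c) had −0.06, −0.03 and −0.04, or −0.04 ± 0.01, and lay above 0 at 0.25 with median centring. Srsf4 (SRp75) had −0.71, −0.05 and 0.26, or −0.17 ± 0.50, so the replicates of its brightest probe disagree in sign. Its second probe had −0.20, −0.10 and −0.03. Srsf12, a relative that counters other SR proteins in splicing assays, had 0.01, −0.51 and −0.59, or −0.37 ± 0.33. Their means were all below 0.

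**Figure D2:**
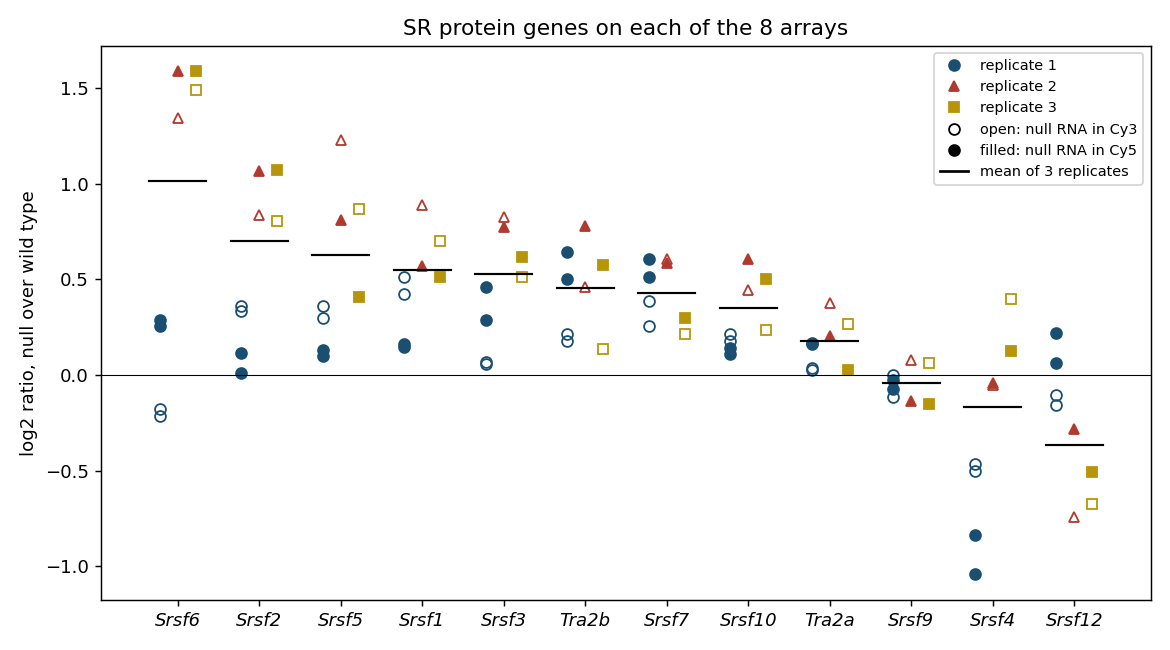
Log2 ratio of null over wild type of the 12 SR protein genes on each of the 8 arrays, by replicate, with filled symbols for null RNA in Cy5 and open symbols for null RNA in Cy3, and a line at the mean of the 3 replicates. Srsf6 ranges from −0.21 on slide 1 to 1.59 on slide 2, while Tra2b and Srsf7 have similar values on both slides.

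The start regions of the 3 SR genes with the highest means and of Qk, whose value was similar on both slides, are shown so that their letters can be set beside the values. Each is the 250 bases before the start of the gene in RefSeq (GRCm38.p6), 5' to 3' on the gene's own strand. Capitals mark any match, on either strand, to the CCAAT box (CCAAT), the GC box (GGGCGG), the E-box (CACGTG), the CRE (TGACGTCA), the ETS core (CCGGAA) or a p53 half-site, with overlapping matches run together. The windows lie at chr11:116853095-116853344 (minus strand) for Srsf2, chr12:80945249-80945498 (plus strand) for Srsf5, chr2:162931258-162931507 (plus strand) for Srsf6 and chr17:10319362-10319611 (minus strand) for Qk, a tissue-regulated factor described below.
Srsf2: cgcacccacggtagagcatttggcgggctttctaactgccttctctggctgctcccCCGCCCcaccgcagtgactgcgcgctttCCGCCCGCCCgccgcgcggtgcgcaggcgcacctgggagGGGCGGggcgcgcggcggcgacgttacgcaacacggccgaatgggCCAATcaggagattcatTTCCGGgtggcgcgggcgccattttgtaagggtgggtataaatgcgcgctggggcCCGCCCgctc
Srsf5: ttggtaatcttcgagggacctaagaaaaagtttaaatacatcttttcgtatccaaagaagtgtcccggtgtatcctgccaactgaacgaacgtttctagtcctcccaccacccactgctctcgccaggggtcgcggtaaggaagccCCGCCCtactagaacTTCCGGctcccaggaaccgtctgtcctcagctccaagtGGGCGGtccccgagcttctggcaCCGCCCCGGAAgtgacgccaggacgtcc
Srsf6: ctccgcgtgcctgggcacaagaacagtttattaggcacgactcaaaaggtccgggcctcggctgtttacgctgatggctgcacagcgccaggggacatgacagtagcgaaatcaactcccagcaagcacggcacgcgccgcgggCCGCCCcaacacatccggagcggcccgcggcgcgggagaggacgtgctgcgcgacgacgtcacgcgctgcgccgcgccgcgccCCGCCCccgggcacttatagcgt
Qk: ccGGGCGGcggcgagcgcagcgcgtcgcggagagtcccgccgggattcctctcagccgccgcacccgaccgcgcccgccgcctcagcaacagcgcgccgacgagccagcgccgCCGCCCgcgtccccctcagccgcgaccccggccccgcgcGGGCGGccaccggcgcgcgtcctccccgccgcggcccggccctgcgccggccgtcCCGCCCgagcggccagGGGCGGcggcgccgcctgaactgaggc
Matches to the GC box numbered 5 in Srsf2, 3 in Srsf5, 2 in Srsf6 and 5 in Qk, and none of the 4 held a p53 half-site. Of the 12 SR genes 11 had a GC box (91.7%), against 69.8% of the 53 members with a window and 32.9% of 27025 genes (1 window per gene). The ETS core was in 41.5% of the members and 12.2% of all genes, the CCAAT box in 45.3% and 34.5%, the E-box in 9.43% and 6.05%, and the CRE in 5.66% and 1.62%. A p53 half-site was in 3.77% of the members, 0 of the SR genes and 7.18% of all genes. The median GC content was 60.4% in the members and 66.6% in the SR genes, against 52% in all genes. The part of base composition in these shares was not tested, and a match to letters is not a bound site.

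The hnRNP proteins package nascent transcripts, and several repress exons. Their 20 genes, PTB included, had a median of 0.07, and by replicate 0.15, 0.12 and 0.03. Of these, 9 were higher and 1 lower in all 3 replicates, where 20.4% and 19.7% of all genes were. At an unadjusted p under 0.05 (limma) 5 were higher and 1 lower, where 9.24% and 8.93% of all genes were.

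Hnrnpdl, a paralog of Hnrnpd, had 0.34, 0.87 and 0.91, or 0.70 ± 0.32 (adjusted p = 0.279, limma). It was higher on all 8 arrays, and its second tested probe had 0.42. Hnrnpab had 0.15, 0.68 and 0.53, or 0.46 ± 0.27. Its other tested probes had means of 0.53 and 0.25, the latter with −0.19 in replicate 1 and 0.45 and 0.50 on slide 2. Hnrnph1, which binds G-rich stretches, had 0.52, 0.43 and 0.26, or 0.41 ± 0.13, with replicate 1 the highest. Hnrnpm had 0.30 ± 0.11, Hnrnpul1 0.24 ± 0.11, Hnrnpa2b1 0.22 ± 0.14 and Hnrnpa3 0.20 ± 0.16. The other tested probe of Hnrnpul1 had the opposite sign, at −0.07 ± 0.21, with −0.32 in replicate 1. Hnrnpa2b1 averaged 0.48 on arrays with the null RNA in Cy5 and 0.01 with it in Cy3. Hnrnpa3 likewise averaged 0.30 and 0.0095, and its other tested probes had means of 0.11, 0.30 and 0.35.

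Hnrnpl, which binds CA-rich stretches, was the only hnRNP gene lower in all 3 replicates, with −0.30, −0.23 and −0.22, or −0.25 ± 0.04. It was negative on each of the 7 arrays where it had a value. Hnrnpc, which binds uridine tracts, had 0.34, −0.45 and −0.73, or −0.28 ± 0.56, so slide 2 lay below 0 and replicate 1 above. Ptbp1, the pyrimidine tract repressor of most tissues, had −0.10, 0.04 and 0.21, or 0.05 ± 0.16, without a shared direction. Its neural paralog Ptbp2 had 0.01, −0.25 and −0.39, or −0.21 ± 0.20. The remaining hnRNP genes, Hnrnpa1, Hnrnpd, Hnrnpf, Hnrnph2, Hnrnph3, Hnrnpk, Hnrnpll, Hnrnpr and Hnrnpu, had means from −0.08 to 0.17. Some of these means average replicates of opposite sign, as in Hnrnpa1 with 0.42, −0.02 and −0.30.

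The SF3a and SF3b subunits belong to the U2 snRNP, which binds the branch point, and U2AF holds the polypyrimidine tract and the 3' splice site. Their 11 genes had a median of 0.13, and by replicate 0.02, 0.24 and 0.26. In all 3 replicates 5 were higher and 1 lower, where 20.4% and 19.7% of all genes were. At an unadjusted p under 0.05 (limma) 2 were higher and 0 lower, where 9.24% and 8.93% of all genes were.

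U2af1, the small U2AF subunit that reads the AG at the intron end, had 0.07, 0.62 and 0.58, or 0.42 ± 0.31. Its second probe had −0.53 in replicate 1 and 0.62 and 0.66 on slide 2. The large subunit U2af2 had −0.43, 0.24 and 0.58, or 0.13 ± 0.51, and its replicates disagree in sign. Sf3b6, which contacts the branch point, had 0.27, 0.35 and 0.26, or 0.29 ± 0.05, higher on all 8 arrays. Sf3a3 had 0.05, 0.33 and 0.29, or 0.22 ± 0.15. Sf3b1, the largest SF3b subunit, had 0.45, −0.21 and −0.24, or 0.00 ± 0.39 on its brightest probe, where the 2 slides oppose each other. Its second probe had −0.09, −0.03 and −0.23, below 0 on both slides.

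Sf3a1 depended on the probe. Its brightest probe had −0.06, −0.28 and −0.29 (−0.21 ± 0.13), and its other probe 0.13, 0.56 and 0.60 (0.43 ± 0.26). The mean of both was 0.11, and median centring put the brightest probe at 0.02. It was the 1 member of 26 with several tested probes whose probe means differed in sign by at least 0.5, while 8 of the 26 differed in sign at all. Whether a probe cross-hybridises to a related gene or pseudogene was not tested for any member.

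**Figure D3:**
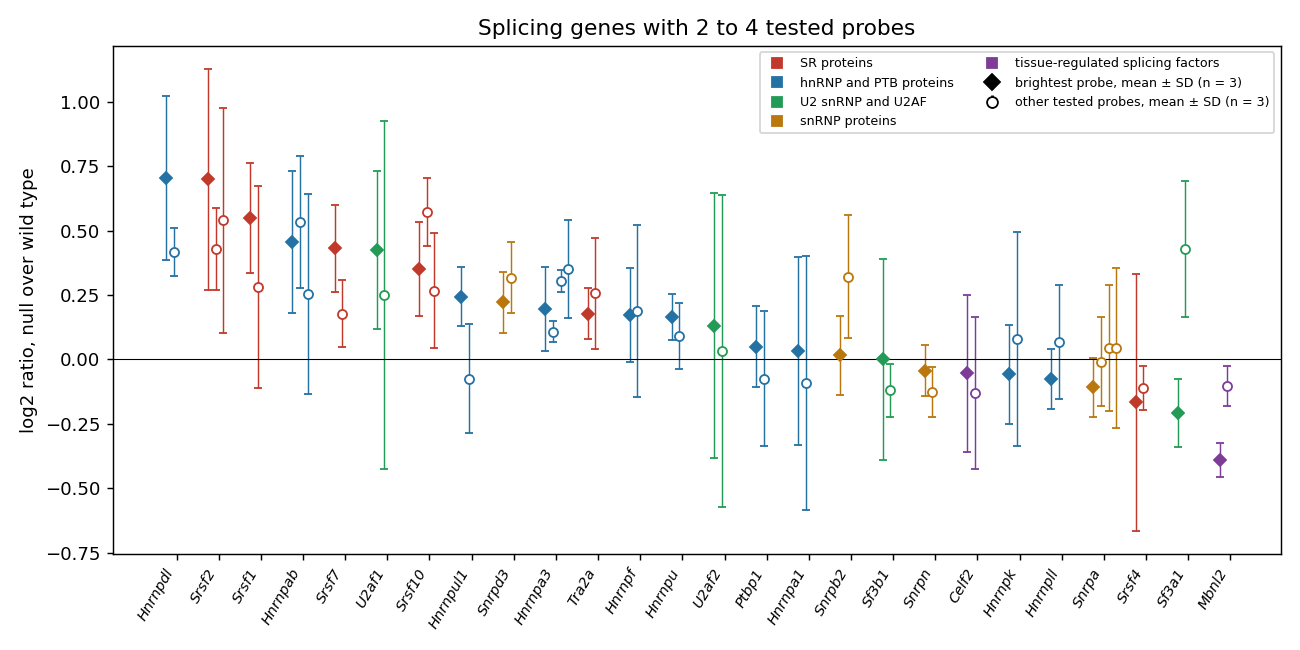
Mean ± SD (n = 3) of the log2 ratio of null over wild type for each tested probe of the 26 splicing genes with 2 to 4 tested probes, the brightest probe filled and the others open. The probes of Sf3a1 lie at −0.21 and 0.43, while the 3 probes of Srsf2 lie between 0.43 and 0.70.

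Of 20 tested SR probes, 16 had a mean above 0 and 15 were higher in all 3 replicates. On their brightest probe 20.4% of all genes were higher in all 3. The shares over all tested probes were not counted, and probes of the same gene are not independent. The second probe of Srsf1, for another of its transcripts, had 0.68, 0.26 and −0.10, so it did not repeat the pattern of the brightest probe. The 3 Srsf2 probes had 0.70, 0.54 and 0.43. The 3 Srsf10 probes had 0.57, 0.35 and 0.27. The second tested probe of Srsf7 had 0.29, 0.21 and 0.03, or 0.18 ± 0.13, below the 0.43 of its brightest probe.

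The snRNP proteins include the Sm ring and the proteins particular to the U1 and U2 particles, so Snrpa1 and Snrpb2 here are also U2 proteins. The 11 genes had a median of 0.02, and by replicate −0.10, 0.15 and 0.10. The median lay from −0.04 to 0.15 relative to all genes over the alternatives run, so it had no settled direction. In all 3 replicates 2 of the 11 were higher and 1 lower, where 20.4% and 19.7% of all genes were.

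Snrpa1 (U2 A') had 0.15, 0.59 and 0.40, or 0.38 ± 0.22. Snrpd3, an Sm protein, had 0.09, 0.25 and 0.32, or 0.22 ± 0.12. Snrpb, the Sm protein B, had −0.41, 0.66 and 0.65, or 0.30 ± 0.62, with the slides on opposite sides of 0. On slide 2 its arrays had 0.19 and 0.05 with the null RNA in Cy5. With it in Cy3 they had 1.13 and 1.25, so the size of the slide 2 value followed the dye. The Sm protein Snrpg had −0.12, −0.18 and −0.19, or −0.16 ± 0.04, and 0.15 with median centring. Snrpn, the imprinted Sm paralog, had −0.04 ± 0.10.

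The tissue-regulated factors had a median of −0.14, and by replicate −0.10, −0.16 and −0.19. Of the 7 tested, 1 was higher and 3 were lower in all 3 replicates, where 20.4% and 19.7% of all genes were. Relative to all genes their median lay from −0.25 to −0.10 under the alternatives run.

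Qk, the STAR-family factor Quaking, had 0.40, 0.52 and 0.50, or 0.47 ± 0.06 (adjusted p = 0.279, limma). It was higher on all 8 arrays, from 0.36 to 0.59. Mbnl2, a muscleblind protein that favours adult isoforms, had −0.40, −0.45 and −0.32, or −0.39 ± 0.07, and was lower on all 8 arrays. Esrp2 and Celf1 were also lower on all 8, where 7.91% of all genes were. The second probe of Mbnl2 had −0.10, but its sign followed the dye. It averaged 0.18 with the null RNA in Cy5 and −0.42 with it in Cy3. Mbnl1 had −0.10, 0.59 and 0.53, or 0.34 ± 0.38, with the slides apart.

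Esrp2, which maintains epithelial isoforms, had −0.29, −0.36 and −0.19, or −0.28 ± 0.09, and was negative on all 8 arrays. Its paralog Esrp1 was well above background on 4 of 8 arrays in each genotype, all on slide 1, so its slide 2 ratios show no direction. Its value in replicate 1 was 0.0085. The 10 epithelial markers had medians of −0.16, −0.15 and −0.09 by replicate, and the log2 ratio of their summed signal ran from −0.33 to 0.05 over the arrays. Their part in the Esrp2 value was not tested. Celf1 had −0.28, −0.09 and −0.06, or −0.14 ± 0.12, and Celf2 0.29, −0.16 and −0.29, or −0.05 ± 0.30. Rbfox2 had 0.25, −0.50 and −0.60, or −0.29 ± 0.47.

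**Figure D4:**
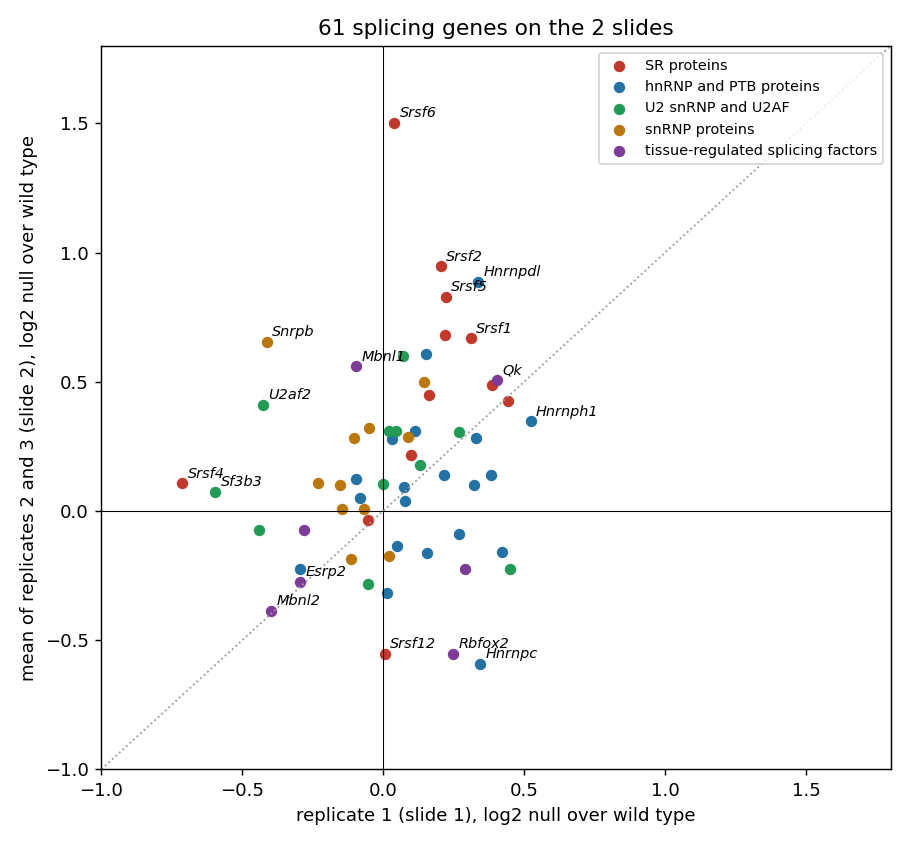
Log2 ratio of null over wild type of the 61 splicing genes in replicate 1 (slide 1) against the mean of replicates 2 and 3 (slide 2), coloured by role, with the dotted line of equality. Qk and Mbnl2 lie near that line, Srsf6 and Snrpb far above it, and Hnrnpc and Rbfox2 far below it.

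In 25 of the 61 genes the sign in replicate 1 was opposite to that on slide 2, while replicates 2 and 3 shared a sign in 54. Replicate 1 lay furthest below slide 2 in Srsf6, Snrpb and U2af2 and furthest above it in Hnrnpc, Rbfox2 and Sf3b1. The share of higher genes was similar in the 3 replicates, at 63.9%, 63.9% and 65.6%, against 46.1%, 53.2% and 53.8% over all genes. Both dye orientations shared a sign in 46 members. The shares of all genes with these sign patterns were not counted. Over all 12000 genes the correlation was 0.94 between replicates 2 and 3. Between replicate 1 and each of these it was 0.02 and −0.205, so the split by slide was not particular to the splicing genes.

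Several marker lists differed between the slides. Markers of erythroid cells had medians of −0.31, 0.93 and 1.28 in replicates 1, 2 and 3 (log2 ratio of the summed signal from −0.54 to 1.92 over the arrays, Epb42 not tested), and liver markers −0.03, 0.97 and 0.59 (−0.38 to 1.67, 4 of 6 tested, Alb and Apoa1 not). Macrophage markers had 0.24, 0.64 and 0.58 (0.15 to 0.96, 5 of 7 tested, Cd68 and Mrc1 not). The erythroid and liver values separate the slides as Srsf6 and Snrpb do. Skeletal muscle markers had 0.09, 0.36 and 0.17 (0.02 to 0.40, 7 of 8 tested, Ckm not). Of the 7, 5 were higher in all 3 replicates, where 20.4% of all genes were. Neuron and glia markers had 0.05, 0.18 and 0.17 (−0.04 to 0.27, 10 markers tested). Both lists were, like the splicing genes, lowest in replicate 1. The 11 kidney progenitor and ureteric bud markers had −0.05, −0.13 and −0.04 (−0.14 to 0.07). The lowest of their means was −0.4475 in Foxd1, which had 0.13, −0.56 and −0.92. Osr1 was next at −0.4457, with −0.37, −0.59 and −0.38. Stromal markers had medians below 0 on both slides, at −0.33, −0.29 and −0.32 (−0.44 to −0.15). Of the 10, 9 had a mean below 0, as had 5898 of all 12000 genes. In all 3 replicates 7 of the 10 were lower, where 19.7% of all genes were. The 8 markers of proliferating cells had −0.01, −0.05 and −0.04 (−0.03 to 0.34). The part of these marker lists in the splicing genes' values was not tested.

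**Figure D5:**
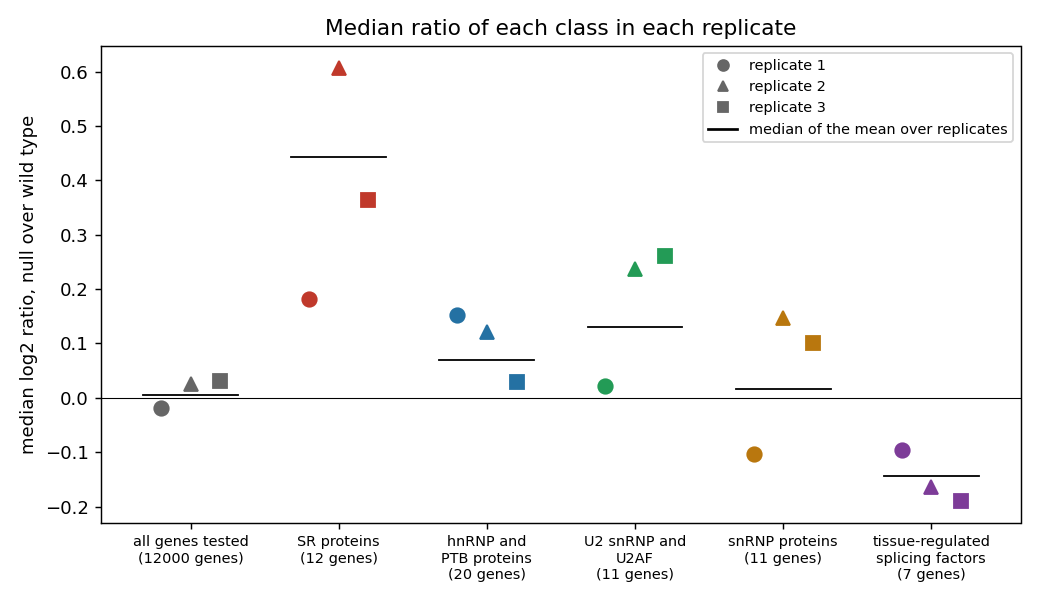
Median log2 ratio of null over wild type in each replicate for all 12000 tested genes and for the 5 role groups, with a line at the median of the replicate means. The SR proteins lie above all genes in every replicate (0.18, 0.61 and 0.36) and the tissue-regulated factors below (−0.10, −0.16 and −0.19).

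Other genes of the pathway came from lists of known splicing genes. For the 61 tested spliceosome components and helicases the median was 0.06, and at an unadjusted p under 0.05 (limma) 9 were higher and 2 lower, where 9.24% and 8.93% of all genes were. Crnkl1, a core protein of the activated spliceosome, had 0.61 ± 0.34 and the second-step factor Slu7 0.47 ± 0.21. Prpf8, the central scaffold of the catalytic core, had −0.71, −0.79 and −0.33 (−0.61 ± 0.24), and Cwc27 −0.35 ± 0.11. In the fit over 8 arrays 4 of the 61 were higher (Crnkl1, Slu7, Prpf39 and Dhx9) and 2 lower (Prpf8 and Cwc27), where 3.10% and 3.08% of all genes passed. That fit holds a term for dye, so a gene can pass without being above 0 on every array. Dhx9 was above 0 on 5 arrays and Crnkl1 on 6, while Slu7 and Prpf39 were on 8. Prpf39 and Dhx9 were named after their values were seen.

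The 9 kinases that phosphorylate SR proteins had a median of −0.09 with 0 at the unadjusted threshold (limma), and the smallest adjusted p was 0.336. Prpf4b had 0.09 ± 0.06 and Dyrk1a −0.09 ± 0.12. The kinases differed between slides, and those named next were chosen after their values were seen. Clk1 had 0.22, −1.24 and −1.11, and Clk4 0.35, −1.03 and −1.18, both well below 0 on slide 2 but above it in replicate 1. Clk3 had 0.15, −0.67 and −0.60, while Srpk1 had −0.43, 0.48 and 0.63, the opposite order. Without replicate 1, 2 of the 9 were higher and 3 lower at an adjusted p under 0.05 (limma), where 32.9% and 27.1% of all genes were.

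The 46 tested other RNA-binding regulators had a median of 0.09, and 10 were higher and 1 lower at that threshold, against the same 9.24% and 8.93%. Sfpq, a paraspeckle protein, had 0.25, 1.39 and 1.23 (0.96 ± 0.62), the same split by slide as Srsf6, and Rbm4b had 0.60 ± 0.34. Rbm47, an epithelial regulator, had −0.36, −0.45 and −0.23 (−0.35 ± 0.11), and Celf5 had −0.07 ± 0.08.

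The SMN complex loads Sm proteins onto small nuclear RNAs. Its 14 tested genes had a median of 0.14, and by replicate 0.00, 0.24 and 0.27, with 2 higher and 0 lower at the unadjusted threshold, against the same background. Gemin6 had 0.04, 0.64 and 0.50 (0.39 ± 0.32) and Ddx20 0.03, 0.56 and 0.50 (0.36 ± 0.29). Gemin5 had −0.20 ± 0.14 and Coil −0.08 ± 0.03.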

How the data were processed

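Spot and background brightness were deposited by the authors as linear intensity, which the file headers credit to Agilent Feature Extraction version 10.5.1.1 and the submitters' processing notes to 6.1. The same scanner files, and the deposited value table, hold the log10 ratio of the program, which was used as an alternative. That table matched those ratios, with the sign set as null over wild type, to within 4.94e-06 on every array (correlation 1), with column medians from −0.0024 to 0.011, so scale, centring and direction are settled. RNA was labelled by direct dye incorporation, per the labels' protocols. The array design uses build mm9, per the file headers, so no probe coordinates are printed.

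Median spot signals were background-corrected with normexp (offset 50) and loess-normalized within arrays with limma 3.58.1 (R 4.3.3), giving weight 0 to the 1639 control spots. Outlier spots were set to missing, saturated spots numbered 0, and the 245 probes spotted more than once were averaged. Arrays were turned to log2 null over wild type and averaged by dye orientation, then by replicate. Of 41174 probes, 20880 were detected (in each replicate, a signal well above background in one genotype on 50% or more of its arrays) and 20865 were tested. The 3 replicate values were tested against 0 with limma (4.22 degrees of freedom, two-sided, Benjamini-Hochberg over all probes). A sign permutation over 3 replicates cannot go below p = 0.25. A gene is shown by its brightest tested probe. Names come from the GRCm38.p6 annotation through RefSeq accessions (25097 probes named, 4257 tested probes unnamed). Promoter windows come from RefSeq too, the first listed where a gene has several (11 members).

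Genes in the text were named by a rule: per role the up to 3 highest and 3 lowest among those with the same sign in all replicates, Qk, Esrp1, Esrp2, Ptbp1 and Ptbp2, genes with discordant probes, and, in each direction, the 3 with the largest gap between replicate 1 and slide 2. Srsf1, Srsf3, Srsf4, Srsf7, Srsf10, Srsf12, Tra2a, Tra2b, Hnrnpm, Hnrnpul1, Hnrnpa2b1, Hnrnpa3, Snrpn, Mbnl1 and Celf2 were described after their values were seen. Alternatives were no background correction, the program's log ratio, median centring, Aquantile scaling, a looser and a stricter filter, leaving out each replicate, slide as a block, all 8 arrays, and the mean of a gene's probes. The members and lists were chosen with earlier results of these data known.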

Additional observations from a re-analysis of the deposited data

Results flagged for a closer look

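Among 31 measures checked over the 8 arrays for a value far from the rest, 1 stood apart. Celf1 had −0.55 on the array of the second pair of replicate 1 with the null RNA in Cy5, with a gap of 0.638 of its range to the nearest other array, above Dixon's limit for 8 values. About 1 in 20 such groups is marked by chance, and arrays of one replicate repeat the same RNA. The cause was not tested.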

How the results depend on the processing

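Of 20865 probes, 0 passed an adjusted p of 0.05 (limma) with 3 replicates, while 1882 higher and 1701 lower had an unadjusted p under 0.05. Counts were 8521 with slide as a fixed block, 1136 with all 8 arrays and between 0 and 11689 when each replicate was left out, the high value without replicate 1. For the 61 splicing genes these counts were 39, 10 and 0 to 41, and at an unadjusted p under 0.05, where 20 passed, 40 with the slide block and 2 to 42. The slide block and the fit without replicate 1 estimate their spread from replicates 2 and 3 alone. Median centring gave medians of 0.34 for all members, 0.35 for hnRNP and PTB, 0.30 for snRNP proteins and −0.020 for the tissue-regulated factors, as the median of all genes moved from 0.00 to 0.15. The hnRNP median ran from 0.060 to 0.17 and the tissue-regulated median from −0.23 to −0.13 when a replicate was left out. The tissue-regulated median was −0.23 with the program's log ratio, and the snRNP median 0.15 with the mean of all probes. Median centring turned Srsf9 to 0.25, Sf3a1 to 0.017 and Snrpg to 0.15. The mean of all probes turned Sf3a1 to 0.11, Ptbp1 to −0.012 and Sf3b1 to −0.059. Sf3b1 was −0.016 without background correction and −0.058 with the program's log ratio, and U2af2 was −0.0089 with the slide block. Leaving out a replicate gave −0.031 to 0.12 for Ptbp1, −0.22 to 0.12 for Sf3b1 and −0.10 to 0.41 for U2af2. The cause of these was not tested. Each ratio already pairs the genotypes within an array, so the main fit held no replicate block. Only the fit over all 8 arrays used one. Aquantile scaling leaves ratios as they are by construction. The 26 named and tested members kept their direction and side of the threshold under it and under both other filters, and 6 of them newly passed with all 8 arrays.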
